A study of Mus musculus with 9 samples.

Results

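The genes described here encode the receptors for glutamate, GABA and glycine, the fast transmitters of the retina, and were followed through the growth of mouse retinal organoids. They were chosen by name: 52 gene names on the array match the symbols of the AMPA, kainate, delta and NMDA receptors (Gria, Grik, Grid, Grin), metabotropic glutamate receptors (Grm), GABA receptors (Gabr, Gabbr) and glycine receptors (Glra, Glrb), leaving out Grm6 and Grik1. Of these, 50 are receptor subunits, and 2 carry a matching name but encode no subunit: Grid2ip, an adaptor protein of synapses, and Grin1os, an RNA transcribed antisense to Grin1. A gene counted as measured when 3 or more of the 9 arrays showed one of its probes well above background, which held for 45 of the 52 (43 subunits) and for 23594 of the 37284 gene names on the array. The 7 that were not measured were Gabra6, Gabre, Gabrp, Gabrq, Glra3, Glra4 and Grm4, each well above background on 0 to 2 arrays.

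Glutamate receptors of the AMPA, kainate and NMDA types are cation channels that carry excitatory signals, while metabotropic receptors act through G proteins. GABA-A, GABA-rho and glycine receptors are chloride channels, and GABA-B receptors are pairs of G protein coupled subunits. In the retina, photoreceptors and bipolar cells release glutamate, horizontal and amacrine cells release GABA, and other amacrine cells release glycine, and many of their receptors lie at synapses of the plexiform layers, while others lie outside synapses or on presynaptic terminals.

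The organoids were grown as floating aggregates of ES or iPS cells from 3 lines: wild type (WT), a knockout of Bhlhb4 (B4KO; the gene is now called Bhlhe23) and a knockout of Islet-1 (Isl1KO). Both knockouts were intended to leave fewer bipolar cells. Each line gave 1 sample on each of 3 differentiation days, 10, 16 and 23 (DD10, DD16, DD23), with 5 organoids pooled per sample, so that a line has 3 arrays and a day has 3 arrays but no line and day has a replicate. The deleted sequences and the number of clones per line are not given in the sources used here. All B4KO arrays shared 1 slide and all WT and Isl1KO arrays another, and each day lay in its own array column, so B4KO and slide, and day and column, cannot be told apart.

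Levels are log2 of the processed signal over the array's 75th percentile of gene spots, and do not allow one gene's probe to be ranked against another's. The 75th percentile lay between 897 and 1138 on the 9 arrays, 57.3% to 67.8% of gene spots were well above background, and 0 were saturated. Tests are from limma with line and day as additive terms, adjusted by Benjamini-Hochberg over all 23594 genes, and a gene passed at an adjusted p below 0.05. The number of arrays limits the precision, and the error in this model is the departure of the lines from a common time course plus noise.

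Isl1 read -0.60, 1.45 and -0.05 in WT over the 3 days, and -1.24, -0.44 and -1.63 in Isl1KO, while a second Isl1 probe gave differences between these lines of 0.37, -0.76 and -0.26. Bhlhe23 read -3.20, -2.82 and -4.55 in WT, -3.41, -4.88 and -6.64 in B4KO and -2.95, -4.55 and -6.56 in Isl1KO. It was well above background in B4KO at DD10, only -0.22 from WT, and not at DD16 or DD23, and at DD16 it was lower than in WT in Isl1KO (-1.73) as in B4KO (-2.05). Where these probes lie relative to the deleted sequences is not known, so the levels do not check the labels, and the arrays are named by their labels throughout. Photoreceptor markers, 9 of 10 of them measured, summed to 1.72 to 3.86 times the 75th percentile at DD10, 40.6 to 45.98 at DD16 and 189 to 238 at DD23. Amacrine markers summed to 8.67 to 9.03, 14.1 to 15.7 and 29.3 to 35.6. Bipolar markers (9 of 11 measured, Vsx1 and Grm6 not) summed to 67.9 to 82.7, 69.3 to 74.5 and 90.9 to 104. Such sums follow the brightest members, and single bipolar markers moved in both directions. In WT, Cabp5 read 5.04, 4.61 and 5.46, Trpm1 4.71, 2.51 and 1.28, and Gnb3 -2.92, 1.60 and 4.25. From DD10 to DD23, 4 of the 9 rose and 2 fell, where 31.6% of all genes rose and 29.2% fell. Forebrain markers summed to 19.1 to 37.7 at DD10 and 7.25 to 9.94 at DD23, and skeletal muscle markers stayed at or below 0.136.

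Most receptor genes reached their highest level at the last day. Averaged over the lines, 33 of the 45 measured genes peaked at DD23, 10 at DD16 and 2 at DD10. The peak day was not counted over all genes, so this split has no background share beside it. At DD23, 43 of 45 were well above background on all 3 arrays, against 35 at DD16 and 35 at DD10 (95.6%, 77.8% and 77.8%, where 88.9%, 83.3% and 84.8% of all genes measured were). The filter bears on these counts, since Glra2 and Grm3 counted as measured through the DD23 arrays alone. Gabrd, Gabrg1 and Gabrr3 would likewise not have reached 3 arrays without those of DD23. The spread between lines at 1 day was a median SD of 0.36, 0.28 and 0.36 over these genes at the 3 days, larger than the 0.21, 0.17 and 0.21 over all genes. In bulk tissue, more cells of a type and more RNA per cell cannot be told apart.

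**Figure D1:**
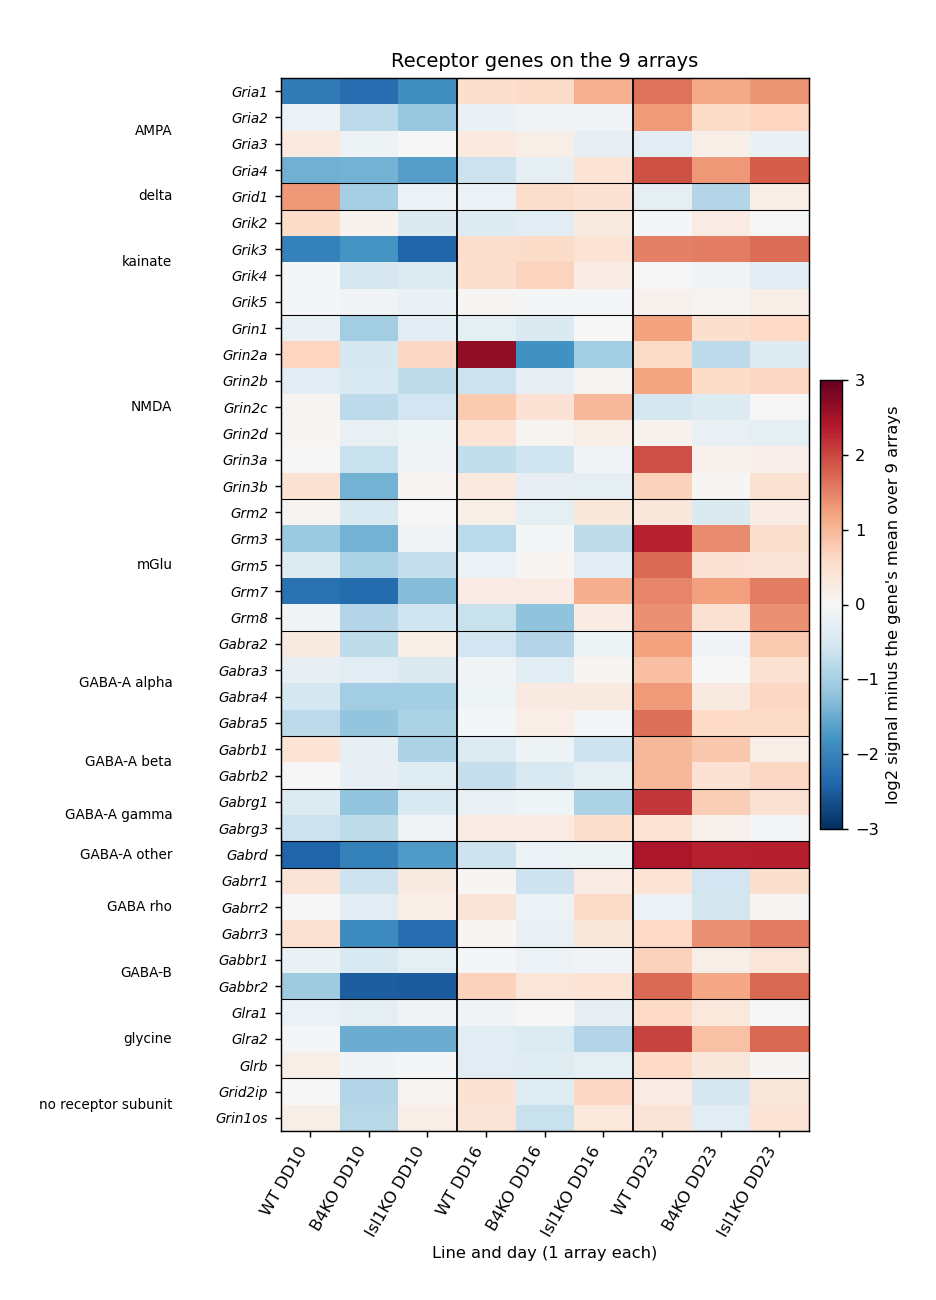
Level of 40 of the 45 measured genes on the 9 arrays, as log2 signal minus the gene's own mean over the arrays (colour bar), with genes in rows by receptor class and arrays in columns by day and line. Most rows turn from blue at DD10 to red at DD23; Grin2a departs from this with 1 high array, WT at DD16.

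Between DD10 and DD16, 18 of the 45 measured genes rose and 0 fell, that is 40.0% higher, where 21.9% of all genes tested rose and 18.8% fell (40.7% in either direction). The median difference was 0.30 over these genes and 0.03 over all genes. AMPA subunit Gria1, kainate subunit Grik3 and the presynaptic metabotropic receptor Grm7 rose most among genes well above background on all DD10 and DD16 arrays, and GABA-B subunit Gabbr2 rose from a level below background. GABA receptors accounted for 9 of the 18 (of 17 measured), ionotropic glutamate receptors for 7 (of 17), metabotropic receptors for 1 (of 6) and glycine receptors for 0 (of 3); the last was Grid2ip.

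Of the AMPA receptor subunits, which carry most fast excitation, Gria1 showed the clearest rise. It read -2.33, -2.53 and -2.08 at DD10 in WT, B4KO and Isl1KO, 0.26, 0.35 and 0.83 at DD16, and 1.38, 0.89 and 1.09 at DD23. The days did not overlap in any pair. Gria1 rose 6.94-fold from DD10 to DD16 (log2 2.80, SE 0.16, adjusted p = 0.000342). Grik3, a low-affinity kainate subunit, read -2.46, -2.23 and -2.82 at DD10, 0.11, 0.13 and -0.02 at DD16, and 1.09, 1.11 and 1.25 at DD23, with the lines in the same order. No DD16 array overlapped with another day, and the rise to DD16 was 5.97-fold (2.58, SE 0.14, adjusted p = 0.00030).

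Grm7 encodes the low-affinity group III receptor of presynaptic terminals. It read -3.87, -3.94 and -2.93 at DD10 in WT, B4KO and Isl1KO, -1.39, -1.39 and -0.55 at DD16, and -0.18, -0.42 and -0.09 at DD23. The Isl1KO array was the highest on each day, and the days did not overlap (rise to DD16 of 2.47, SE 0.17, adjusted p = 0.000547). Gabbr2, which couples the GABA-B receptor to G proteins, was not well above background on any DD10 array, where it read -5.24, -6.66 and -6.69. It read -3.50, -3.82 and -3.78 at DD16 and -2.49, -3.02 and -2.46 at DD23. All DD16 arrays were above all DD10 arrays, and the signal was at least 2.25-fold higher at DD16 and at least 4.64-fold higher at DD23 than at DD10. For these bounds a dim value was raised to its array's floor, the dimmest signal flagged as well above background there.

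The probes that gave these values are 60 bases long, and the first 30 bases are shown for the 3 largest of these rises because each value above is that of 1 probe. Positions are of the array design, build mm9, and all letters are lower case since none is singled out.
Gria1 at chr11:57141228-57141257, plus strand: agaaatgaaacaccccctccaaccaccaca
Grik3 at chr4:125391317-125391346, plus strand: attattttcctttttaagacactgtgatat
Grm7 at chr6:111517083-111517112, plus strand: actttcgttaatcttgctgcttatgtgtca
Whether each lies in an exon or another part of its transcript was not determined, since no annotation of that build was used here.

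The other subunits that rose by DD16 included Gabrd (1.73, at least 1.24-fold), Gria4 (1.34), Grin2c (1.15), Gabra5 (1.003), Gabra4 (0.99), Gabrg3 (0.84), Grik4 (0.79), Grin2d (0.33) and Gabrr2 (0.30). Differences in the other direction did not pass, among them those of Gabra2 (-0.44), Glrb (-0.34) and Grin2a (-0.33). All DD16 arrays lay below all DD10 arrays for 2 of the 45 genes, Glrb among them, and for 22.2% of all genes.

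Of the 18 rises, 7 passed under every alternative that gave a value, among them Gria1, Grik3, Grm7, Gabbr2 and Gabrd. On the slide of WT and Isl1KO alone 10 of the 45 passed (22.2%), all of them rises. Under that setting 20.8% of all genes passed, 11.5% higher and 9.21% lower. Gabra4, Gabra5, Gabrg3, Gabrr2 and Grin2d were among the genes that missed the threshold without at least 1 of 8 arrays, all but WT at DD23 (adjusted p of 0.0501 to 0.114 there), and leaving out Isl1KO at DD16 left 12. The scale also matters. The 8 spike-in control RNAs that were well above background on all arrays read 0.51 higher at DD16 than at DD10 (median; range 0.11 to 0.59) on the percentile scale. When the arrays were set level on them, an alternative chosen after seeing the data, the median of all genes became -0.47 and that of the receptor genes -0.21, with 10 higher (among them the 7 above, Gria4 and Grin2c) and 11 lower, where 6.99% of all genes were higher and 59.9% lower. A difference on the percentile scale is thus one relative to the bulk of genes.

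**Figure D2:**
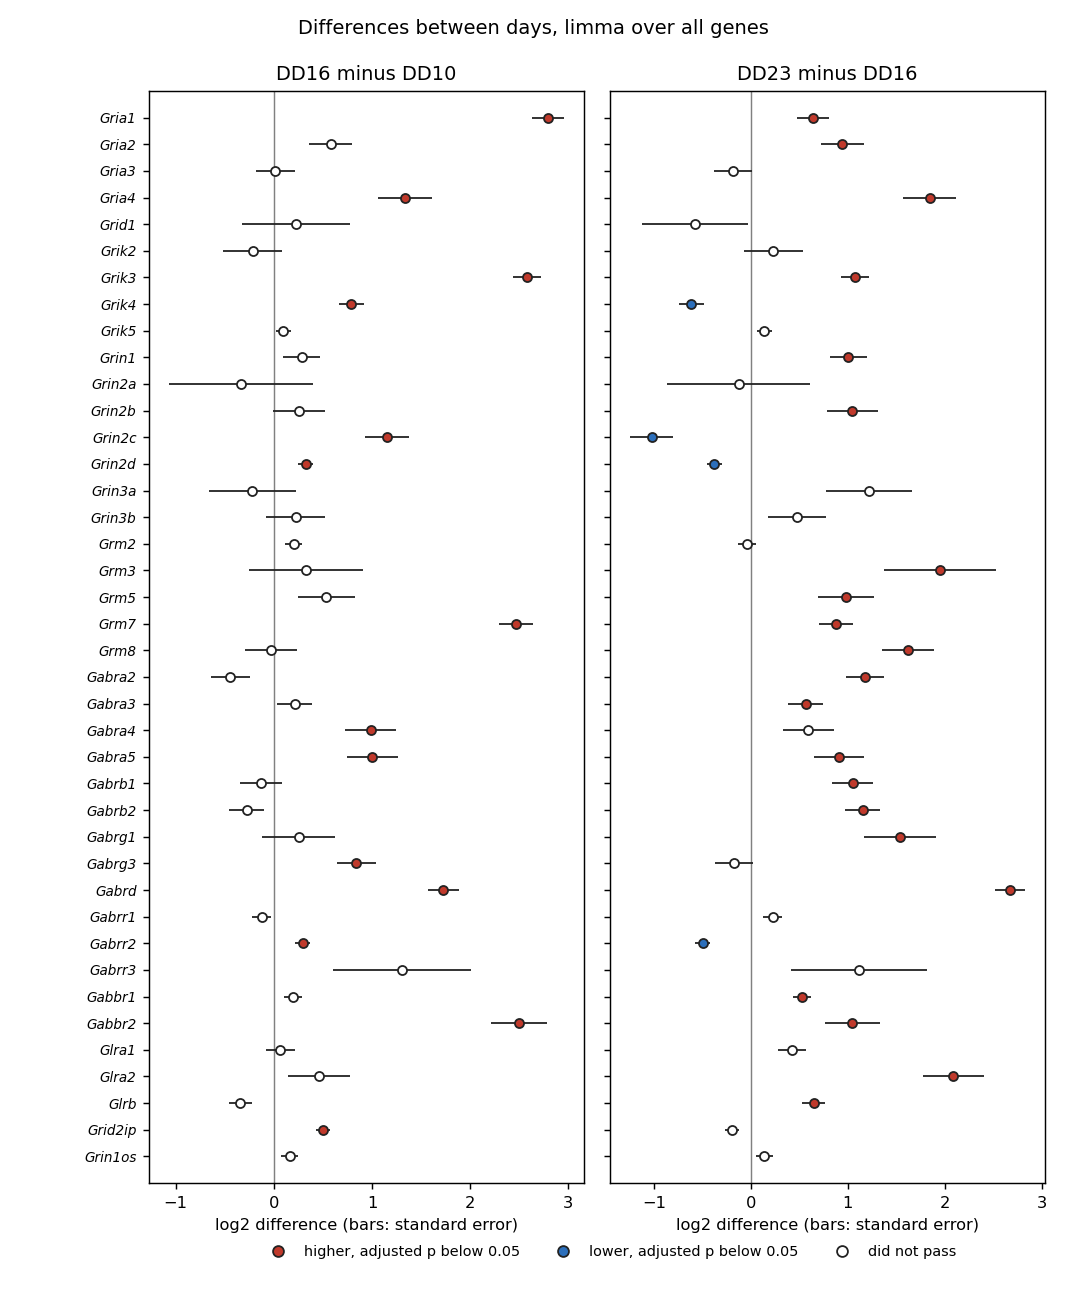
Log2 difference from DD10 to DD16 (left) and from DD16 to DD23 (right) for 40 of the 45 measured genes, in receptor order, with the standard error of the limma fit (bars); filled points passed at an adjusted p below 0.05. On the left 14 points are red and 0 blue, and on the right 21 are red and 4 blue. Both steps use the DD16 arrays.

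From DD16 to DD23, 24 genes rose (53.3%) and 4 fell, where 19.3% of all genes rose and 21.9% fell (41.2% either way), with a median of 0.65 against 0.01 over all genes. The GABA-A delta subunit Gabrd rose most, followed by the AMPA subunit Gria4 and the glycine receptor subunit Glra2, with dim values raised to the floor. The 24 include Glra2 and the group II metabotropic receptor Grm3, which were measured through the DD23 arrays alone and so had to be higher there. They also include Gabrd and Gabrg1, which reached 3 arrays only with those of DD23. Among the 33 genes well above background on all 9 arrays, 16 rose and 4 fell, where 18.5% and 25.9% of all such genes did. GABA receptors had 12 rises and 1 fall among 17, ionotropic glutamate receptors 6 rises and 3 falls among 17, metabotropic receptors 4 rises among 6 and glycine receptors 2 rises among 3.

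Gabrd encodes a subunit of GABA-A receptors outside synapses that set tonic inhibition. It read -6.65, -6.29 and -5.94 at DD10 in WT, B4KO and Isl1KO, all not well above background, -4.86, -4.44 and -4.39 at DD16 and -1.83, -1.93 and -1.91 at DD23. The days did not overlap. Gabrd rose at least 5.48-fold from DD16, where 1 of 3 arrays was well above background, and at least 7.86-fold from DD10 to DD23. No test of these rises is given, since Gabrd reached 3 arrays only with those of DD23.

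Glra2, the alpha-2 glycine receptor subunit found early in development, was well above background only at DD23. It read -4.41, -5.88 and -5.86 at DD10, -4.70, -4.80 and -5.26 at DD16, and -2.34, -3.50 and -2.66 at DD23, and was at least 3.53-fold higher at DD23 than at DD16; no test is given, since these arrays let it count as measured. B4KO was the lowest line at DD23 but still above all DD16 arrays. The first 30 bases of its probe (chrX:161567527-161567556, minus strand, mm9) are shown as those of the largest rise among the glycine receptor genes.
Glra2: gtccactttgatattatttttctttcctag

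Grm3 was likewise well above background on DD23 arrays alone, where it read -3.11, -4.01 and -4.94, against -6.25, -5.46 and -6.20 at DD16 and -6.54, -6.85 and -5.50 at DD10. It was at least 1.55-fold higher at DD23 than at DD16, likewise given without a test. Gria4, an AMPA subunit with fast kinetics, read -2.46, -2.44 and -2.66 at DD10, -1.65, -1.29 and -0.60 at DD16 and 0.90, 0.28 and 0.80 at DD23. Its days did not overlap, and the later rise was 3.59-fold (1.84, SE 0.27, adjusted p = 0.00434). Grm8, a group III receptor of presynaptic terminals, rose at least 2.99-fold from DD16, where 1 of 3 arrays was well above background (fit 1.62, SE 0.26, adjusted p = 0.00564), with B4KO the lowest line on each day.

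The 4 genes that fell, Grin2c, Grik4, Gabrr2 and Grin2d, had risen in the earlier step on the percentile scale, though Gabrr2 and Grin2d differed by -0.21 and -0.18 in that step on the spike-in scale. Grin2c, an NMDA subunit, read -1.45, -2.30 and -2.11 at DD10, -0.75, -1.09 and -0.56 at DD16 and -2.03, -1.92 and -1.51 at DD23. Every DD16 array was above every array of the other days, and the later difference of -1.02 (SE 0.23, adjusted p = 0.0148) was not called without Isl1KO at DD16 (-0.94, adjusted p = 0.0641). Grik4, a high-affinity kainate subunit, read -0.68, -1.13 and -1.04, then -0.13, 0.05 and -0.40, then -0.64, -0.74 and -0.95, with DD16 again highest (-0.61, adjusted p = 0.0126; 0.0513 without Isl1KO at DD23). Grid1, a delta receptor, differed by -0.57 without passing. It was well above background on 3 arrays: WT at DD10 (-4.13) and Isl1KO at DD16 (-4.99) and DD23 (-5.22).

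Gabrr2, a rho subunit of the GABA receptors that bipolar cells are known for, read 0.51, 0.17 and 0.70 at DD10 in WT, B4KO and Isl1KO, 0.87, 0.32 and 1.08 at DD16 and 0.31, -0.05 and 0.52 at DD23. Within each line DD16 was the highest day, although the days overlapped between lines (DD23 minus DD16 of -0.50, SE 0.08, adjusted p = 0.0049). Grin2d, an NMDA subunit of immature neurons, read 3.61, 3.34 and 3.43 at DD10, 3.97, 3.64 and 3.74 at DD16 and 3.65, 3.32 and 3.25 at DD23. WT was the highest line on each day, and the later difference of -0.37 (SE 0.07, adjusted p = 0.0107) was not called without Isl1KO at DD16 (-0.35, adjusted p = 0.0527).

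**Figure D3:**
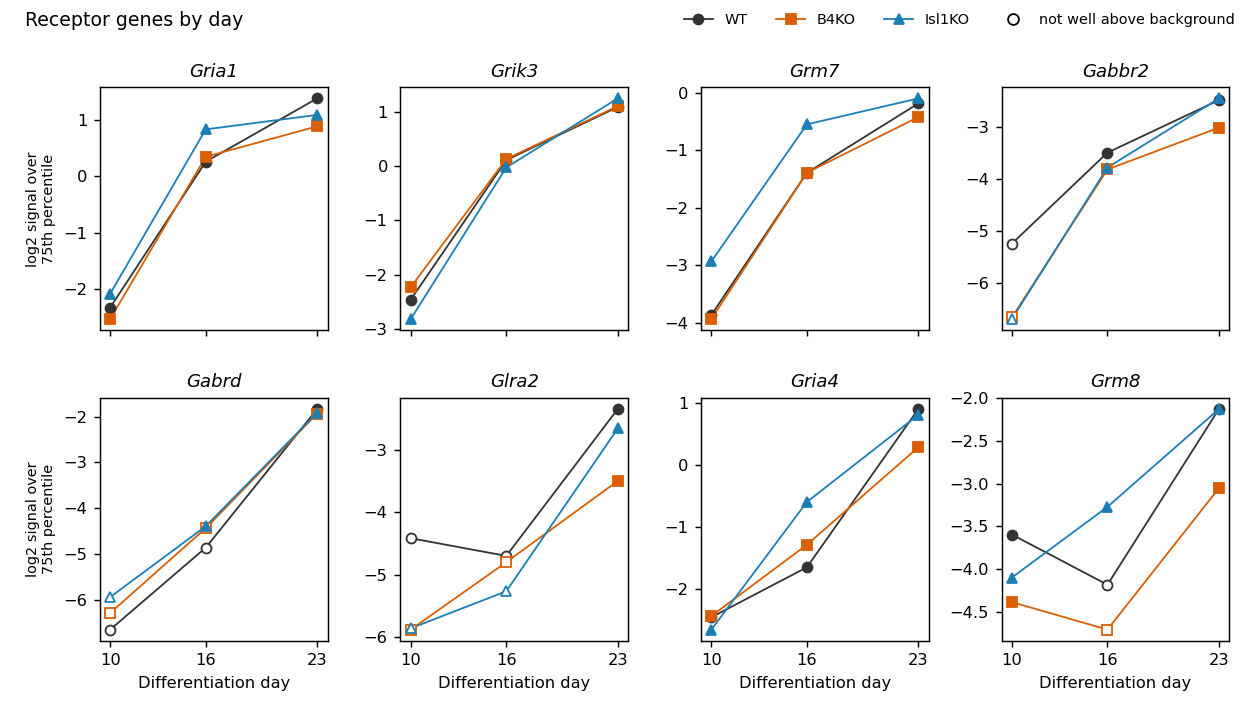
Log2 signal over the 75th percentile by differentiation day for 8 genes, 1 array per point, with lines joining the arrays of WT, B4KO and Isl1KO; open symbols were not well above background. Gria1, Grik3, Grm7 and Gabbr2 climb most before DD16, whereas Glra2 and Grm8 climb after it, and Gabrd and Gria4 climb in both steps.

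The remaining rises to DD23 ranged from 0.53 (Gabbr1) to 1.54 (Gabrg1, at least 2.69-fold). They included those of Gabra2, Gabrb2, Grik3, Gabrb1, Grin2b, Gabbr2, Grin1, Grm5, Gria2, Gabra5, Grm7, Glrb, Gria1 and Gabra3. Gria2, the subunit that makes AMPA receptors impermeable to calcium, read -0.20, -0.82 and -1.18 at DD10, -0.24, -0.11 and -0.11 at DD16 and 1.25, 0.51 and 0.61 at DD23 (0.94, SE 0.22, adjusted p = 0.0178, and 0.0662 and 0.0736 without WT or Isl1KO at DD23). DD23 lay above both other days, which overlapped. Grin1, the obligate NMDA subunit, rose 2.01-fold (1.005, SE 0.19, adjusted p = 0.00911).

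Glrb anchors glycine receptors at synapses. It read -0.21, -0.46 and -0.43 at DD10, -0.71, -0.74 and -0.67 at DD16 and 0.21, -0.05 and -0.34 at DD23, so DD16 was the lowest day in every line (rise to DD23 of 0.65, SE 0.12, adjusted p = 0.0086). Gabbr1, the GABA-binding partner of Gabbr2, read 1.16, 0.90 and 1.08, then 1.32, 1.17 and 1.24, then 2.06, 1.54 and 1.73, with DD23 above the other days (0.53, SE 0.09, adjusted p = 0.00674). Grik5, which needs a partner kainate subunit, read 1.62, 1.54 and 1.44, then 1.69, 1.62 and 1.59, then 1.77, 1.73 and 1.82, and passed in neither step.

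Over the 28 changes of this step, 11 passed under every alternative. Among them Gria4, Grm8, Gabra2, Gabrb2, Grik3, Grin1 and Gabbr1 rose and Gabrr2 fell. The 11 also include Gabrd and Glra2, which would not count as measured without the DD23 arrays, so their calls carry no weight here. On the slide of WT and Isl1KO alone 14 of the 28 passed, and Grin3b besides (15 of 45, 33.3%). All of these were rises except Gabrr2 and Grik4. Under that setting 28% of all genes passed, 13.2% higher and 14.7% lower. Without Isl1KO at DD16, 18 of the 28 passed. Of the 28, 14 lost the call without at least 1 of the 9 arrays (adjusted p of 0.0508 to 0.173). Among these 14 were Gabbr2, Gabra3, Gabra5, Gabrg1, Gria1, Gria2, Grik4, Grin2b, Grin2c, Grin2d, Grm3 and Grm5. Each of the 9 arrays removed at least 1 of them. On the spike-in scale the split was 25 higher and 4 lower, where 23% of all genes were higher and 16.9% lower. Over the same step all 9 measured photoreceptor markers and 6 of 9 amacrine markers rose, and 7 of 9 progenitor markers fell. On the percentile scale 19.3% of all genes rose and 21.9% fell in this step. The part of these cell types in the receptor differences was not tested.

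Over the whole course from DD10 to DD23, 30 of 45 genes rose (66.7%) and 0 fell, against 31.6% and 29.2% of all genes (60.7% either way), and the median was 0.88 against 0.05. All DD23 arrays lay above all DD10 arrays for 28 of the 45, and for 26.3% of all genes. Both counts, and those by class below, include Gabrd, Gabrg1, Gabrr3, Glra2 and Grm3. These reached 3 arrays only with those of DD23, so their calls carry no weight here. GABA receptors had 15 rises among 17 (median 1.58), among them Gabrd, both GABA-B subunits and 1 of 3 rho subunits, Gabrr3. AMPA subunits had 3 of 4, metabotropic receptors 4 of 6, glycine receptors 2 of 3, kainate subunits 2 of 4 and NMDA subunits 2 of 7. Among the 33 genes well above background on all 9 arrays, 21 rose and 0 fell, where 30.6% of all such genes rose. Set level on the spike-ins, the course had 21 higher and 5 lower, where 15.6% of all genes were higher and 50.9% lower, with a median of 0.45 against -0.38 for all genes. Of the 30 rises, 18 passed under every alternative, Gabrd, Gabrg1 and Glra2 among them. Another 9 lost the call without at least 1 array (adjusted p of 0.0504 to 0.13). These were Gabra2, Gabra3, Gabrg3, Gabrr3, Glra1, Grid2ip, Grik5, Grin1os and Grm3, and each of the 9 arrays removed at least 1 of them.

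GABA-A subunit genes lie in groups along the chromosomes. By probe position, the probes used for the members of a group differed in the size of their rise from DD10 to DD23. On chromosome 7, Gabra5 rose by 1.91 (SE 0.26) and Gabrg3 by 0.67 (SE 0.20). On chromosome 5 the rises were 1.79 for Gabrg1, 1.58 for Gabra4, 0.92 for Gabrb1 and 0.73 for Gabra2. Other probes gave other sizes: 0.72 for Gabra5, 0.01 to 1.37 for Gabrg3, 0.36 to 1.97 for Gabra2 and -0.77 for Gabra4. Gabrg1 reached 3 arrays only with those of DD23. The differences between neighbours were not tested, and their order depended on the probe.

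Probes of the same gene did not always agree. Of the called genes with another probe, all other probes had the same sign in 8 of 10 between DD10 and DD16, 14 of 15 between DD16 and DD23, and 15 of 17 over the whole course. Gabra4 is the clearest exception: the probe used rose by 0.99 between DD10 and DD16 and 1.58 by DD23, while another differed by -0.92 and -0.77. Both are shown by their first 30 bases (mm9, minus strand), the first at chr5:72046584-72046613 and the second at chr5:71962653-71962682.
Gabra4, probe used: gaggctctgtcttcccagaagggtttttaa
Gabra4, other probe: ttggagcaagagaaatagagctaggagaga
Gabrg3 had other probes at -0.10 to 0.45 between DD10 and DD16, Gabbr1 at -0.25 to 0.51 between DD16 and DD23, and Grik5 at -0.20 over the course.

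Promoters of 31 of the 45 genes were found in RefSeq (39 windows of 300 bases, 250 of them before the start, build GRCm38.p6). They held a median of 13 CpG pairs, from 0 to 50, where the median of all 32851 windows was 7. Genes that rose ranged widely, from 0 CpG in Gabra3 to 50 in Grik3. The 100 bases before the start are shown for 3 of them, each CG in capitals, because they lie toward the ends of that range. Grik3 has 50 CpG in its window (chr4:125490596-125490695, plus strand), Gabbr2 has 46 (chr4:46991715-46991814, minus strand) and Gabrg1 has 3 (chr5:70842618-70842717, minus strand).
Grik3: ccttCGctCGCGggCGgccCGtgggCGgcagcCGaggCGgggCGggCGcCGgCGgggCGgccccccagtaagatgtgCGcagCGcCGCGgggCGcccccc
Gabbr2: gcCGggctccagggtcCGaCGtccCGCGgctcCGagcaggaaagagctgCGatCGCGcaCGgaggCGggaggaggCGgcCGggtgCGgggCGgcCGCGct
Gabrg1: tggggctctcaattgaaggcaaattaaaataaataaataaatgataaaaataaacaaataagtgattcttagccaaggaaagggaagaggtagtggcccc
Of all windows, 1.65% hold 46 or more CpG and 31.4% hold 3 or fewer. Motifs were searched on both strands. The OTX and CRX motif TAATCC was found in 3 of the 39 windows (Gabra2, Gabrr2 and Grin1os; 7.06% of all windows), the homeodomain motif TAATTA in 1 (Gabrg1; 5.29%) and the E-box CAGATG in 3 (Gabra5, Gabrr1 and Grin3b; 17.2%).

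Genes that act with these receptors were taken from lists of accessory proteins, transmitter supply and chloride transport. Of 45 accessory genes measured, 15 rose and 8 fell between DD10 and DD16, and 17 rose and 2 fell between DD16 and DD23. Of all genes, 21.9% rose and 18.8% fell in the first step, and 19.3% rose and 21.9% fell in the second. Cacng3, which carries AMPA receptors to the membrane, rose by 2.99 and then 2.15, Kctd16, a GABA-B auxiliary subunit, by 2.66 in the first step, and Dlgap1, a postsynaptic scaffold, by 1.61 in the second. The AMPA auxiliary Cnih3 (-1.57) and the scaffold Homer2 (-1.17) led the early falls, and Cacng4 (-0.57) and Dlg3 (-0.24) the later ones.

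Of 16 genes of transmitter supply, 11 rose and 0 fell by DD16, where 21.9% of all genes rose and 18.8% fell. The rises were led by the glutamate transporter Slc1a2 (3.63) and the vesicular GABA and glycine transporter Slc32a1 (3.30). In the later step 9 rose and 2 fell, where 19.3% of all genes rose and 21.9% fell. The transporters Slc1a7 (4.56) and Slc1a1 (3.57) rose most, and Abat (-0.64), which degrades GABA, and Gad1 (-0.22), which makes it, fell. Of 7 chloride transport genes, 2 rose in the later step, among them Slc12a5, the neuronal potassium chloride exporter, by 2.10, while 4 fell, led by Slc12a7 (-0.94) and Stk39 (-0.51).

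The comparison of B4KO with WT addresses the loss of Bhlhb4 at matched days. In B4KO, 7 of the 45 were lower and 0 higher (15.6% lower), where 18% of all genes were lower and 3.99% higher (22% in either direction). The median difference was -0.38 against -0.00 over all genes, and 42 of the 45 were below 0. The 7 were Gabrr1, Gabrr2, Gabra2, Grm2, Grin2d, Grid2ip and Grin1os. No difference of this line can be told apart from its slide, and 1 of 8 spike-in RNAs also read lower there (-0.75), the others higher by up to 0.22. The lower one was the dimmest of the 8, at -3.86, -3.76 and -3.18 in WT and -4.53, -4.28 and -4.23 in B4KO. The next dimmest read -1.83, -1.17 and -1.27 in WT. Whether dim signals in general read lower on the B4KO slide was not tested.

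The rho subunits Gabrr1 and Gabrr2 form the slowly desensitising GABA receptors of bipolar cell terminals. Gabrr1 read -3.15, -3.15 and -3.09 in B4KO at DD10, DD16 and DD23, against -2.14, -2.47 and -2.10 in WT and -2.24, -2.28 and -2.04 in Isl1KO. All B4KO arrays were below all arrays of the other lines, and the difference from WT was -0.89 (SE 0.09, adjusted p = 0.0015). Gabrr2 was below WT on each matched day (-0.42, SE 0.08, adjusted p = 0.0128), although its arrays overlapped with those of WT. Bipolar markers summed to 67.9, 69.3 and 90.9 in B4KO, 75.8, 72.7 and 104 in WT and 82.7, 74.5 and 97.97 in Isl1KO. These sums follow the brightest markers. Of the 9 bipolar markers measured, 1 was lower in B4KO than in WT and 0 were higher. Of all genes, 18% were lower and 3.99% higher. The part of bipolar cells in the rho subunit differences was not tested.

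Grm2, a group II metabotropic receptor known from amacrine cells, read -1.66, -1.48 and -1.64 in B4KO against -1.12, -1.02 and -0.86 in WT and -1.19, -0.87 and -0.98 in Isl1KO. No B4KO array reached those of the other lines (-0.59 from WT, SE 0.09, adjusted p = 0.00588). The antisense RNA Grin1os read -2.59, -2.44 and -2.11 against -1.59, -1.38 and -1.38 in WT (-0.93, SE 0.09, adjusted p = 0.00112), and Grid2ip read -2.28, -1.78 and -1.89 against -1.41, -0.98 and -1.17 (-0.80, SE 0.07, adjusted p = 0.000923). Both were lower in B4KO than in WT and in Isl1KO on all arrays. Grin1 itself, on the strand opposite Grin1os, did not pass. Of the 45 accessory genes measured, 6 were lower and 0 higher in B4KO, where 18% of all genes were lower and 3.99% higher. The 6 were led by the AMPA auxiliary Shisa6 (-1.03) and the adhesion protein Nlgn3 (-0.92). Of the 16 transmitter supply genes measured, Gad1 alone was lower (-0.75).

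All B4KO arrays lay below all WT arrays for 6 of the 45 genes, and for 17.2% of all genes. All Isl1KO arrays lay above all B4KO arrays for 5 of the 45, and for 17.7% of all genes. The probes of Gabrr1 (chr4:33250489-33250518, plus strand) and Grm2 (chr9:106547252-106547281, minus strand) begin as shown, for the 2 receptor genes whose B4KO arrays stood fully apart from both other lines.
Gabrr1: tgtcctatagtcactgttgcctgcctttcc
Grm2: aggaagttggctggagccttgcaataacac

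Gabra2, a synaptic GABA-A subunit, read -2.89, -3.01 and -2.22 in B4KO against -1.87, -2.72 and -0.93 in WT (-0.87, SE 0.20, adjusted p = 0.0262), with overlap. Its call was lost without any one of 5 arrays (-0.87 to -0.66), and that of Grin2d (-0.31, SE 0.07, adjusted p = 0.0318) without any one of 7. The other 3 Gabra2 probes differed by -0.44 to -0.19. The 5 other calls passed under every alternative that gave a value. Without WT at DD16, 11 genes were called lower.

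Some wide differences of B4KO from WT were of dim genes and did not pass. Grin2a, the NMDA subunit of mature synapses, read -4.17, -2.17 and -4.25 in WT, -5.29, -6.63 and -5.59 in B4KO, where it was not well above background on any array, and -4.20, -5.86 and -5.20 in Isl1KO. The WT array of DD16 stood far above the other 8. The fit gave -2.31, at least 2.28-fold lower. Without WT at DD16 the fit gave -1.24, and over DD10 and DD23 alone the bound was at least 1.48-fold lower. No test of this difference is given, since Grin2a reached 3 arrays only with those of WT, where it was high. Grin3b read -4.21, -4.35 and -3.95 in WT against -6.06, -4.90 and -4.61 in B4KO, with no overlap (-1.02, SE 0.30, adjusted p = 0.0593). Glra2 differed by -0.91 (adjusted p = 0.0939).

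In Isl1KO against WT, the comparison for the loss of Islet-1, 0 of the 45 genes passed in limma, where 0.00424% of all genes (1 gene) did. At an unadjusted p below 0.05 there were 6 of 45, and 1924 of all 23594 genes. The arrays of the 2 lines stood fully apart for 0 of the 45, against 1.47% of all genes higher and 1.54% lower in Isl1KO. Without the filter on dim probes 1 passed, Gabre (-0.62, adjusted p = 0.0442), which was well above background on 0 arrays, while 4548 of 37284 genes (12.2%) passed under that setting, 11.8% lower and 0.435% higher. The largest differences were Grin2a (-1.56), Gabrg1 (-0.81, SE 0.37, adjusted p = 0.643), Glra2 (-0.77, adjusted p = 0.613) and Gabrb1 (-0.77, SE 0.21, adjusted p = 0.497). No test is given for Grin2a, which reached 3 arrays only with those of WT. The difference of Grin2a came mainly from DD16 (-0.03, -3.69 and -0.95 by day) and was -0.48 without WT at DD16, smaller than the others there (-1.02 to -1.03). Gabrb1, a GABA-A beta subunit, read -3.43, -3.10 and -2.30 in Isl1KO and -2.09, -2.91 and -1.53 in WT, lower on each matched day but overlapping. Gabrg1 read -4.72, -5.21 and -3.80 against -4.68, -4.48 and -2.15 and differed by -0.04 at DD10, -0.73 at DD16 and -1.66 at DD23. Grm7 differed the other way, by 0.62 (adjusted p = 0.501).

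**Figure D4:**
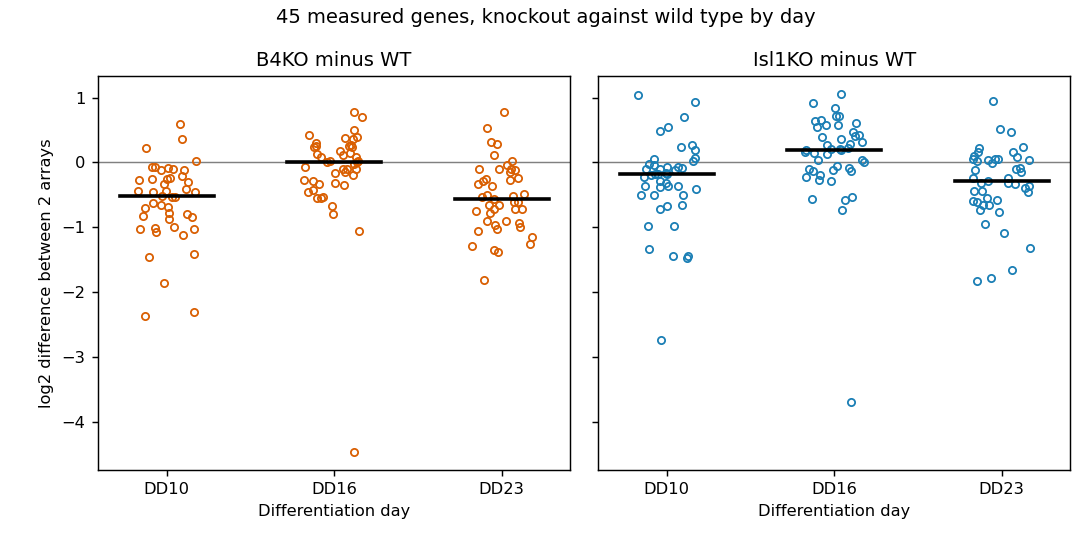
Difference of B4KO (left) and Isl1KO (right) from WT at each day for the 45 measured genes, 1 point per gene, each a log2 difference between 2 arrays with no replicate; black bars are medians. The medians lie below 0 at DD10 and DD23 and at 0.00 (B4KO) and 0.19 (Isl1KO) at DD16, and the lowest point at DD16 in both is Grin2a.

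Taken day by day, receptor genes lay on balance below WT in both knockouts at DD10 and DD23 but not at DD16. The median over the 45 genes was -0.52, 0.00 and -0.56 in B4KO at DD10, DD16 and DD23, and -0.18, 0.19 and -0.29 in Isl1KO, while the medians over all genes stayed within 0.03 of 0. Forebrain markers (8 of 9 measured) summed to 37.7 in WT at DD10 against 19.1 in B4KO and 22.5 in Isl1KO, and ganglion cell markers (8 of 9 measured) to 24.6 in WT at DD23 against 15.3 and 13.8; at DD16 the ganglion sums were 28.6, 25.9 and 16.9. Their part in these differences was not tested. At DD23, 6 genes were higher in B4KO than in WT and 15 in Isl1KO. These are differences between single arrays, they share the WT arrays, and they have no test.

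A second fit asked whether the difference at DD23 departed from that at the earlier days, and 0 genes passed in either knockout, among the 45 and among all genes. At an unadjusted p below 0.05 there were 7 of 45 in Isl1KO (15.6%; 4.92% of all genes) and 4 of 45 in B4KO (8.89%; 6.06% of all genes), and both departures use the WT array of DD23. Grin3a, an NMDA subunit that lowers calcium entry, had the lowest p in both. It read -2.41, -3.16 and -0.48 in WT, -3.09, -3.02 and -2.29 in B4KO and -2.53, -2.52 and -2.26 in Isl1KO, so that WT at DD23 stood above the other 8 arrays. The departure was -2.05 in Isl1KO (adjusted p = 0.871 in limma) and -1.55 in B4KO (adjusted p = 0.785). Gabra5, a GABA-A subunit of extrasynaptic receptors, and Grm5, a group I metabotropic receptor, had the same form: WT at DD23 was -1.11 and -1.17, B4KO -2.17 and -2.44, and Isl1KO -2.20 and -2.49.

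**Figure D5:**
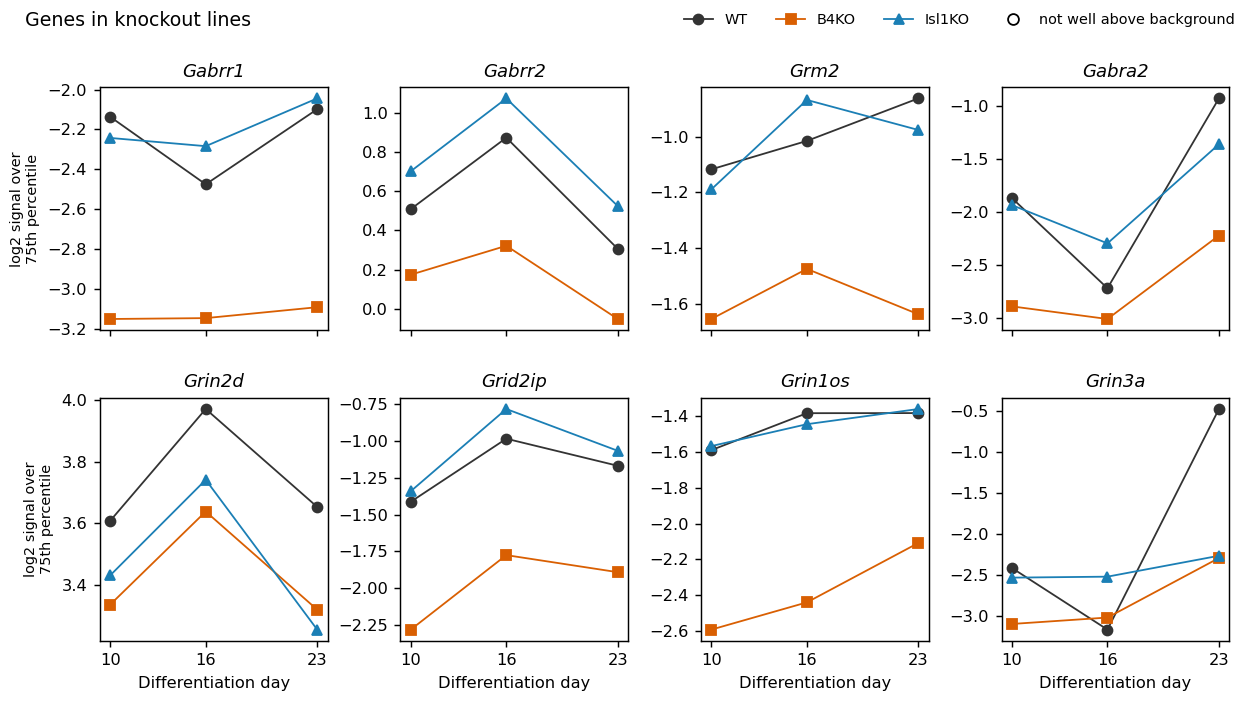
Log2 signal over the 75th percentile by day for the 7 genes called lower in B4KO and for Grin3a, 1 array per point, with lines joining the arrays of a line. B4KO lies below both other lines on every day in the panels of Gabrr1, Gabrr2, Grm2, Gabra2, Grid2ip and Grin1os, and in the panel of Grin3a the WT array at DD23 (-0.48) stands alone.

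Isl1KO and B4KO were also compared with each other. In Isl1KO 7 genes were higher and 0 lower (15.6%), where 18.1% of all genes were higher and 3.80% lower; all but Grm7 were genes called lower in B4KO against WT, a comparison that shares the B4KO arrays. Grm7 was higher by 0.72 (SE 0.17, adjusted p = 0.0316), and its call was lost without any one of 6 arrays (0.58 to 0.79). The Gabra2 difference of 0.84 was not seen with its other 3 probes, which lay between -0.03 and 0.01.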

How the data were processed

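RNA of the 9 samples was labelled with Cy3 and measured on Agilent arrays, per the labels. The authors' files hold the spot intensity from Agilent Feature Extraction 12.0.3.1, per the submitters' processing notes: a processed, background-subtracted intensity, raw mean and background intensity, and 0 or 1 flags, per the file headers. Values in the deposited table are a ratio of the processed intensity to a constant per array, as checked on spots above 1 (spread below 0.78%), and served as an alternative.

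Spots of a probe were averaged, 102 probes flagged as outliers were left out, and the brightest probe of a gene with a well-above-background flag on at least 3 arrays was used, after dividing by the 75th percentile of gene spots and taking log2. Of 115 probes of the receptor genes, 79 were matched by accession to RefSeq and bore the same symbol. limma 3.58.1 in R 4.3.3 fitted line and day to all 9 arrays (4 residual and 2.01 prior degrees of freedom), with Benjamini-Hochberg adjustment; the second fit, which let each knockout depart from WT at DD23, had 2 residual degrees of freedom. With 1 sample per line and day, p-values measure the departure from additivity, not the spread between cultures. The fit was also run on simulated data with known changes, and the outcome is not given here. Promoter windows came from RefSeq.

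The members, lists and tests were chosen with earlier results of these data known. Test values are printed for genes that passed, other than Glra2, Grm3 and Gabrd between days. They are also printed for the 4 largest differences of each comparison, other than Grin2a between either knockout and WT. Values of every array are printed for the 8 brightest genes, the 4 largest rises and falls of each day step and the 4 largest differences of each knockout, and for Gabrr1, Grm2, Gabra2, Grid2ip, Grin3a, Gabra5 and Grm5, which were chosen after their values were seen. Genes of the other lists are the largest rises and falls that passed. Some genes that meet these rules are not reported here by name or in the plots of named genes, but are counted. Alternatives were normexp background correction (offset 50), quantile and median scaling, the deposited table, both filters on dim probes, the mean over probes, a robust intensity trend, the slide of WT and Isl1KO alone, leaving out each array, and the spike-in scale.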

Additional observations from a re-analysis of the deposited data

Results flagged for a closer look

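Receptor genes whose levels differed between Isl1KO and B4KO in the test of that difference (limma, additive model of 9 arrays, adjusted over all genes) were Gabrr1 (0.94 higher in Isl1KO on the log2 scale), Grin1os (0.92), Grid2ip (0.92), Gabra2 (0.84), Grm7 (0.72), Gabrr2 (0.62) and Grm2 (0.58). This is the difference between the effects of the knockouts against the same WT arrays. Isl1KO and B4KO lay on different slides, so line and slide cannot be told apart. Gabra2 showed no such difference with its other 3 probes, which lay between -0.03 and 0.01. Groups of 3 arrays were not tested for outlying samples.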

How the results depend on the processing

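The counts of called receptor genes stayed within 1.5 times the reported count under the alternatives, except as follows. On the slide of WT and Isl1KO alone, 10 genes were called between DD10 and DD16 (18 with all arrays) and 15 between DD16 and DD23 (28 with all arrays). In either direction, 20.8% and 28% of all genes were called there. Fewer samples enter that fit. Without the filter on dim probes, 1 gene, Gabre, was called in Isl1KO against WT, as were 12.2% of all genes. On the spike-in scale the calls between DD10 and DD16 split into 10 higher and 11 lower (18 and 0 as reported) and those between DD10 and DD23 into 21 higher and 5 lower (30 and 0). Leaving out each array in turn gave 12 to 18 calls between DD10 and DD16, 18 to 27 between DD16 and DD23, 23 to 30 between DD10 and DD23, 5 to 11 for B4KO against WT, 5 to 9 for Isl1KO against B4KO and 0 for Isl1KO against WT. The lowest count between DD16 and DD23 (18) came without Isl1KO at DD16, and the highest for B4KO (11) without WT at DD16; the cause was not tested.

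Signs turned only on the spike-in scale, which was chosen after seeing the data and lowers every difference from DD10 by its own construction. There Gabrr2 read -0.21, Grin2d -0.18 and Grid2ip -0.00996 between DD10 and DD16, and Grik5 -0.20, Grin1os -0.13 and Grid2ip -0.13 between DD10 and DD23. No call was made for the DD23 departure of either knockout under the alternatives that allow that fit.

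No paired analysis was possible because the labels carry no replicate numbers to use as a block; the additive model already matches the lines by day. Dim genes limit what can be said: 12 of the 45 were not well above background on every array, and their fitted differences depend on values near background.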
